A study of Cenchrus americanus with 9 samples.

Results

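The genes described here are those of pearl millet (Pennisetum glaucum) whose transcripts were high in crown root tips and lower in both other root types. They were chosen on the deposited normalised counts themselves. The lowest of the 3 crown root values had to be at least 100 and at least 1.5 times the highest of the 6 lateral and primary root values, the lowest primary root value had to be below 1.5 times the highest lateral root value, and each root type needed a value above 0. Of the 19754 genes in the table, 129 met this rule, or 0.653%. Crown, lateral and primary root values all took part in the choice, so the levels and fold changes below are a description of the chosen genes and their comparison with the other root types is no test of it.

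Plants of Tift23DB, the genotype of the reference genome, were grown for 15 days in rhizotrons, flat boxes with a plexiglass face, and no treatment is stated. RNA was taken from crown root tips (apical 5 cm), from the lateral roots carried by primary roots, for which no apex length is stated, and from primary root tips (apical 5 cm). There were 3 libraries of each root type, each from roots of 3 pooled plants, so a value is an average over plants and the spread between libraries is that between pools. Root type and the part of the root sampled cannot be told apart in the comparisons with lateral roots. In whole root pieces, a lower value may come from fewer cells of a type or from less RNA per cell, and these cannot be told apart.

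A cereal seedling first relies on the primary root, which grows from the embryo. Crown roots form later on the stem nodes and make up most of the mature root system, while lateral roots branch from the other roots and provide much of the absorbing surface. Each of the 129 genes is known here only by its Pgl_GLEAN number, the identifier of the reference gene set, because the files pair these numbers with no gene name or function. No role can therefore be given for any of them, neither gene families nor cell type markers were examined, and the labelled tissue was not checked against marker genes.

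The whole counts recovered from the table summed to between 39739052 and 64062081 per library. The normalised totals still ran higher in crown roots (52916036 to 57967565) than in lateral (48396078 to 49845075) and primary roots (47180332 to 50460211). All levels below are normalised counts, that is counts divided by a factor for each library and not by gene length, so the level of a gene is compared between libraries and not ranked by expression per transcript.

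The fold limit was the condition that removed most genes. Of the 19754 genes, 14673 had at least 100 in every crown root library, and 185 of these had a lowest crown value at least 1.5 times every lateral and primary value. The condition on primary roots left out 56 of the 185, in which primary roots were well above lateral roots, and the condition on values above 0 left out none of the remaining 129. At the fold limit, the gene just inside had 1814, 1795 and 1540 in crown roots, 954, 1025 and 958 in lateral roots and 1012, 799 and 1015 in primary roots, a ratio of 1.503. The gene just outside had 552, 417 and 625 in crown roots, 185, 230 and 221 in lateral roots and 249, 275 and 278 in primary roots, a ratio of 1.499. Of the 129 genes, 19 had a ratio up to 0.05 above the limit, and 26 further genes missed it by up to 0.05, so the edge of the group is densely filled. The level limit mattered less, with 105.57 as the lowest crown value inside and 93.34 as the nearest outside. At the limit on primary roots, the lowest primary value was 1.481 times the highest lateral value in the gene just inside, and 1.520 times in the gene just outside.

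**Figure D1:**
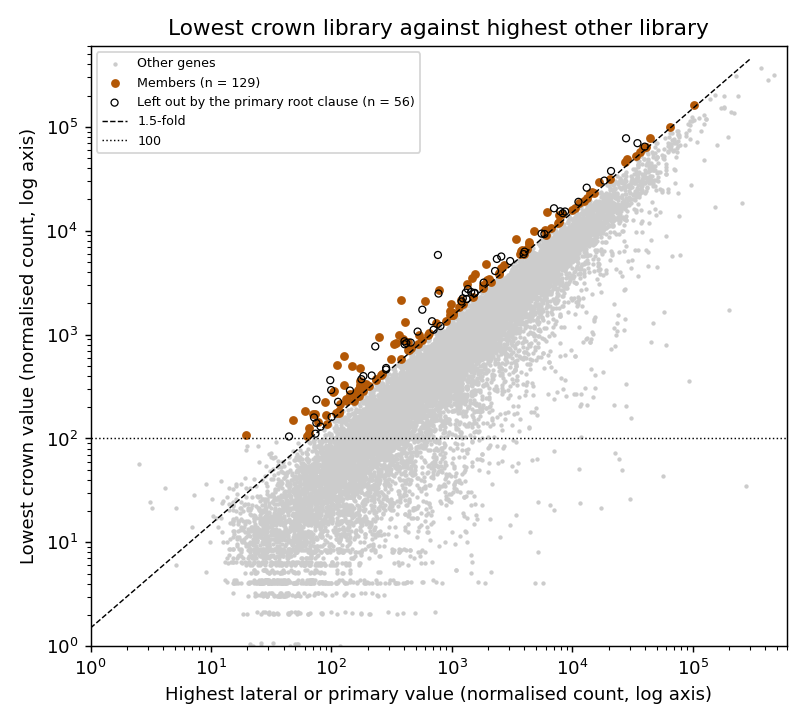
Lowest crown root value (vertical) against the highest lateral or primary root value (horizontal) of each gene, both in normalised counts on log axes; filled points are the 129 genes, open points the 56 genes that the condition on primary roots left out, grey points all other genes with both values above 0, and the lines mark 1.5-fold and 100. The 129 genes lie along the 1.5-fold line, with 30 of them at 2-fold or more.

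The separation of crown roots was modest in most of the group. The ratio of the lowest crown value to the highest other value had a median of 1.69 and ran up to 5.72. It was at least 2 in 30 genes, at least 3 in 11 genes and at least 5 in 2 genes, and it lay under 1.6 in 41 genes. The ratio of group means was larger, with a median of 3.82 for crown over lateral roots (1.75 to 54.3) and of 2.47 for crown over primary roots (1.56 to 13.97). The highest value outside crown roots was in a primary root library for 117 genes and in a lateral root library for 12, so primary roots set the ratio in most of the group.

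**Figure D2:**
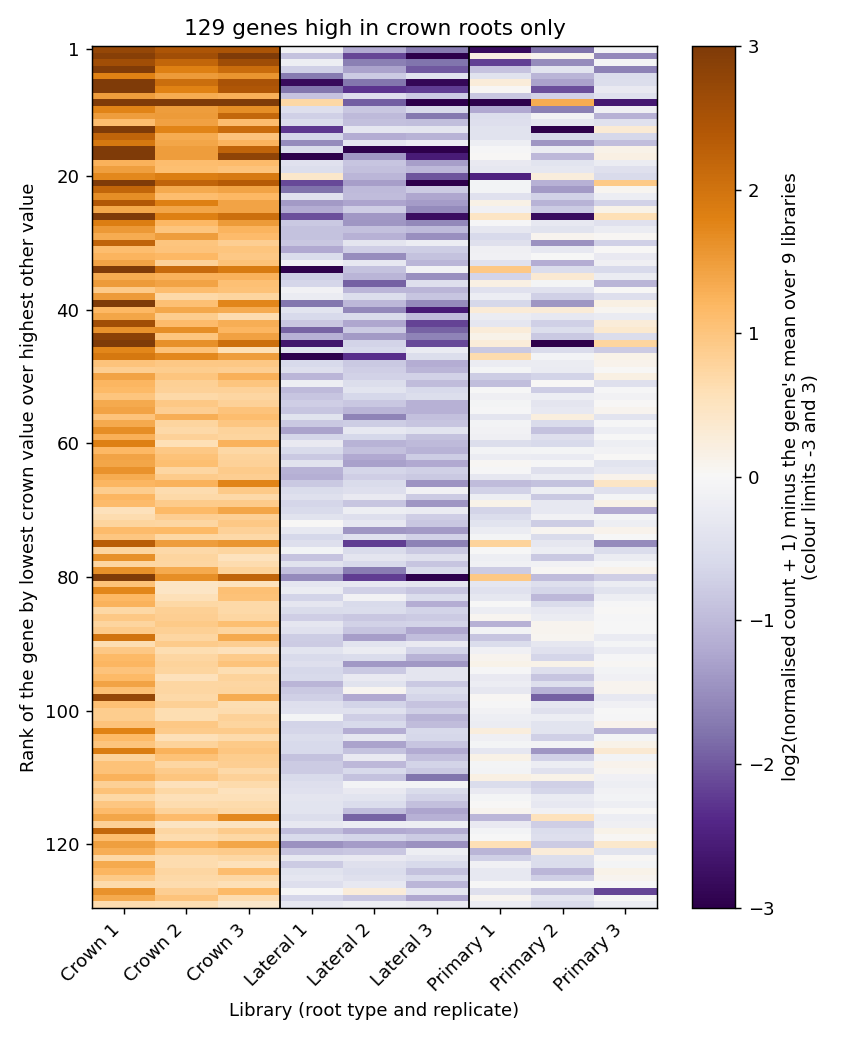
Each row is 1 of the 129 genes, ordered by the ratio of its lowest crown value to its highest other value, and each column a library; colour gives log2(normalised count + 1) minus the gene's mean over the 9 libraries, with colour limits at -3 and 3. Crown root libraries are above every other library in each row, as the rule requires, lateral root libraries are mostly the lowest, and crown root replicate 1 is the highest library in 104 rows.

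The clearest case was Pgl_GLEAN_10008725. It had 2661, 2166 and 2209 normalised counts in crown root replicates 1 to 3, against 372, 176 and 122 in lateral roots and 56.5, 114 and 378 in primary roots. Crown root values were close together (2346 ± 274, SD, n = 3), whereas lateral roots (223 ± 132, SD, n = 3) and primary roots (183 ± 172, SD, n = 3) overlapped with each other and varied several-fold among replicates. In limma the log2 fold change, with a standard error of 0.589, was 3.54 over lateral roots and 4.10 over primary roots (Benjamini-Hochberg adjusted p of 0.00113 and 0.00406). Without crown root replicate 1, 2 or 3, without primary root replicate 2, without the mean-variance trend or with only these root types in the fit, the adjusted p over primary roots lay between 0.0107 and 0.0213 in limma.

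Pgl_GLEAN_10023370 had the next highest ratio, 5.55, at the lowest crown mean of the group. Its values were 134, 108 and 145 in crown roots, 8.66, 3.11 and 0 in lateral roots and 19.4, 18.2 and 5.08 in primary roots. Every crown root library was thus far above the others, but the low values leave the size of the difference uncertain. Crown roots exceeded lateral roots by a log2 fold change of 5.24 and primary roots by 3.27 on the log2(normalised count + 1) scale (standard error 0.851), and the comparison with primary roots did not pass (adjusted p = 0.0436 from limma). With a pseudocount of 10 the log2 fold change over primary roots was 2.57 and its adjusted p from limma 0.00425. This was 1 of 3 genes of the group with a library at 0, and in all 3 the library was a lateral root one.

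Levels differed widely within the group. Crown root means ran from 129 to 191272 with a median of 1533 and quartiles of 419 and 8022. They were under 1000 in 56 genes, from 1000 to 10000 in 44 and at least 10000 in 29. The median ratio of the lowest crown to the highest other value was 1.80 in the 56 genes under 1000. It was 1.70 in the 44 between and 1.61 in the 29 at or above 10000. Ratios of at least 2 were found in 16, 12 and 2 genes of these classes. The rule cut on this ratio and on the lowest crown value, so the differences between classes are a description. The median coefficient of variation among crown root libraries was 16.0%, 16.3% and 18.6% in the same order.

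The most abundant gene of the group, Pgl_GLEAN_10000631, chosen after its values were seen, stood at percentile 99.95 of all genes by its crown root mean. It had 243167, 167646 and 163003 in crown roots, 80479, 68558 and 45276 in lateral roots and 101460, 69494 and 98414 in primary roots. All crown root libraries were above all others, as the rule requires, and lateral and primary roots overlapped. Limma gave a log2 fold change of 1.58 over lateral roots with a standard error of 0.254 (adjusted p = 0.000922) and of 1.09 over primary roots, which did not pass (adjusted p = 0.0295).

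The crown root values of Pgl_GLEAN_10016932 were the most even of the group, and it too was chosen after its values were seen. It had 29893, 30149 and 29671 in crown roots, a coefficient of variation of 0.80%, against 11764, 9886 and 7877 in lateral roots and 15712, 13845 and 16658 in primary roots. Here the 3 root types did not overlap, in the order crown, primary, lateral. Over primary roots limma gave 0.96 on the log2 scale with a standard error of 0.152 (adjusted p = 0.00582), just under the fold limit of the comparison.

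Summed over the 129 genes, the group took a larger share of the crown root libraries than of the others. With library totals this close, the rule itself makes that certain, so the shares are a description of size only. It held 2.85%, 2.18% and 2.27% of the normalised counts in crown root replicates 1 to 3, against 1.005%, 1.003% and 0.832% in lateral roots and 1.34%, 1.09% and 1.35% in primary roots. The 10 most abundant members made up 57.2% to 59.6% of that sum in crown roots, 60.7% to 64.9% in lateral roots and 62.6% to 63.4% in primary roots. The mean library total was 6378173 normalised counts higher in crown than in lateral roots, of which the group accounts for 13.9%, and 6523667 above the primary root mean, of which it accounts for 11.3%.

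**Figure D3:**
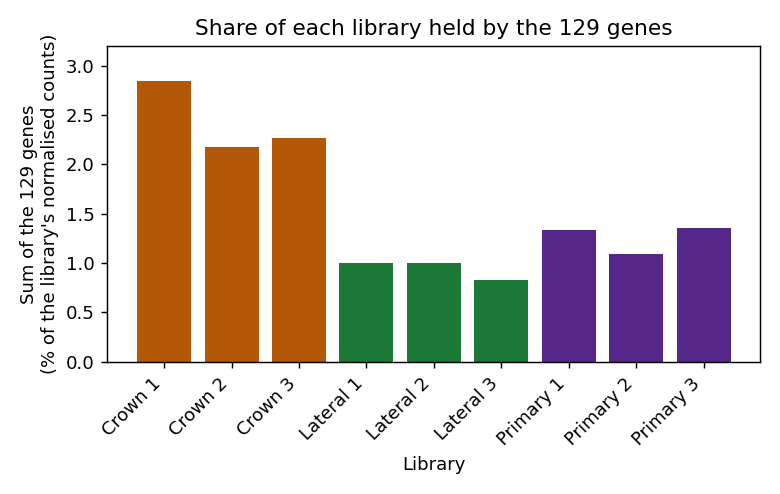
Sum of the 129 genes as a percentage of all normalised counts of the library, by library, with crown, lateral and primary roots from left to right and replicates 1 to 3 within each. Crown root libraries stand at 2.18% to 2.85%, lateral root libraries at 0.832% to 1.005% and primary root libraries at 1.09% to 1.35%.

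The size of the group depended on how the libraries were scaled. With every library scaled to the same total, which removes the excess of the crown root totals, 65 genes met the rule, all of them among the 129. With quantile normalisation 132 genes did, of which 91 were among the 129. With 1 library left out and the rule applied to the rest, 125 to 230 genes met it, and the number moved by over 1.5 times without crown root replicate 2 (212), crown root replicate 3 (230) or primary root replicate 3 (216).

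The rule was also applied to the 6 libraries of 2 replicate numbers, and the libraries of the remaining number were inspected. This describes genes picked anew and not the 129, which were chosen on all 9 libraries. Of 198 genes picked without replicates number 1, 162 (81.8%) had a held-out crown value at least 1.5 times both the held-out lateral and primary values. Without number 2 this was 142 of 205 genes (69.3%), and without number 3 it was 166 of 365 (45.5%). Over all genes with a held-out crown value of at least 100, the shares were 12.2%, 9.04% and 5.67%. Some excess of the held-out crown value over both others was seen in 96.5%, 94.6% and 89.6% of the picked genes, against 40.8%, 41.2% and 42.2% of all such genes. The held-out crown value was thus the higher one for most picked genes, while its excess was under 1.5-fold in many of them. The picked genes are more numerous than the 129 and include 107, 101 and 122 of them. Those members pass in the held-out libraries by the rule itself, so the shares are no test of the 129.

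The 3 comparisons of root types were fitted over all 19754 genes with limma on log2(normalised count + 1), and a gene was called where its Benjamini-Hochberg adjusted p was under 0.01 and its log2 fold change reached 1 in either direction. Over lateral roots, 119 of the 129 genes were called higher in crown roots, where 4.84% of all genes were. Over primary roots, 43 of the 129 were called higher in crown roots, where 0.400% of all genes were, and none was called lower in either comparison, where 8.38% and 1.18% of all genes were. Both contrasts were used by the rule, so nothing is read from these shares. Of the 129 genes, 41 were called over both root types, 78 over lateral roots alone, 2 over primary roots alone and 8 over neither. The median log2 fold change of the group was 1.91 over lateral roots (0.81 to 5.87) and 1.32 over primary roots (0.64 to 4.94), beside -0.02 over all genes in each comparison, and 126 and 106 of the genes reached a log2 fold change of 1. The median standard error was 0.263. By level, 50 of the 56 genes under 1000, 41 of the 44 between and 28 of the 29 at or above 10000 were called over lateral roots, against 9, 23 and 11 over primary roots.

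The numbers called under other settings are a description too, since the rule used both contrasts. The number called over lateral roots stayed between 105 and 126 in every setting run. The number called over primary roots varied more. It was 26 with equal totals, 4 without the mean-variance trend and 7 with only crown and primary roots in the fit. It was 25, 13 and 20 without crown root replicate 1, 2 or 3, 18 and 24 without lateral root replicate 2 or 3, and 8, 7 and 16 without primary root replicate 1, 2 or 3.

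Crown root replicate 1 ran ahead of the other crown root libraries in this group. It held the highest crown root value in 104 of the 129 genes (80.6%), against 12 for replicate 2 and 13 for replicate 3. Among the 15574 genes with a crown root mean of at least 100 it was the highest in 46.3%. Its median excess over the mean of the other 2 crown root libraries was 0.34 on the log2 scale in the group and 0.07 among those genes. The rule used the crown root values of the group, so these differences are a description. The recovered count total of crown root replicate 1 (55457911) was close to that of replicate 2 (55067956), and its normalised total was the highest of the 9 libraries.

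In 15 genes of the group the value in crown root replicate 1 was at least 2 times that in both other crown root libraries, a limit set after the values were seen. No gene of the group had crown root replicate 2 or 3 ahead to that extent. Among the 15574 genes the numbers were 433 for replicate 1, 37 for replicate 2 and 40 for replicate 3. Pgl_GLEAN_10030783, with the highest mean ratio of crown over primary roots in the group, is an example. It had 15521, 2658 and 4147 in crown roots, 230, 156 and 163 in lateral roots and 785, 180 and 632 in primary roots, and limma gave a log2 fold change of 3.63 over primary roots with a standard error of 0.641 (adjusted p = 0.00953). Pgl_GLEAN_10013085, with the highest mean ratio over lateral roots, had 10494, 2101 and 2808 in crown roots, 69.3, 147 and 67.6 in lateral roots and 599, 206 and 349 in primary roots. In both genes even the lowest crown root library was over 3 times any other library.

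Primary root replicate 2 was the lowest primary root library in 14 of these 15 genes, and in 69 of the other 114. The rule had a part in this, since it asks for a primary root library below 1.5 times the highest lateral root value. Primary root replicate 2 was the only library that met this condition in 9 of the 15 genes and in 14 of the other 114. The median coefficient of variation in the 15 genes was 75.9% in crown roots, 48.0% in lateral roots and 56.5% in primary roots, against 15.1%, 20.1% and 18.5% in the other 114. Their median ratio of means was 14.2 for crown over lateral roots and 7.24 for crown over primary roots, against 3.36 and 2.36 in the other 114. With the mean of crown root replicates 2 and 3 alone, these medians were 8.34 and 3.81 in the 15 genes. They were 3.11 and 2.17 in the others. The rule used all these values, so the difference is a description. Of the 15 genes, 3 were called over primary roots, with 13 called over lateral roots, and their median standard error was 0.593 against 0.240 in the others.

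**Figure D4:**
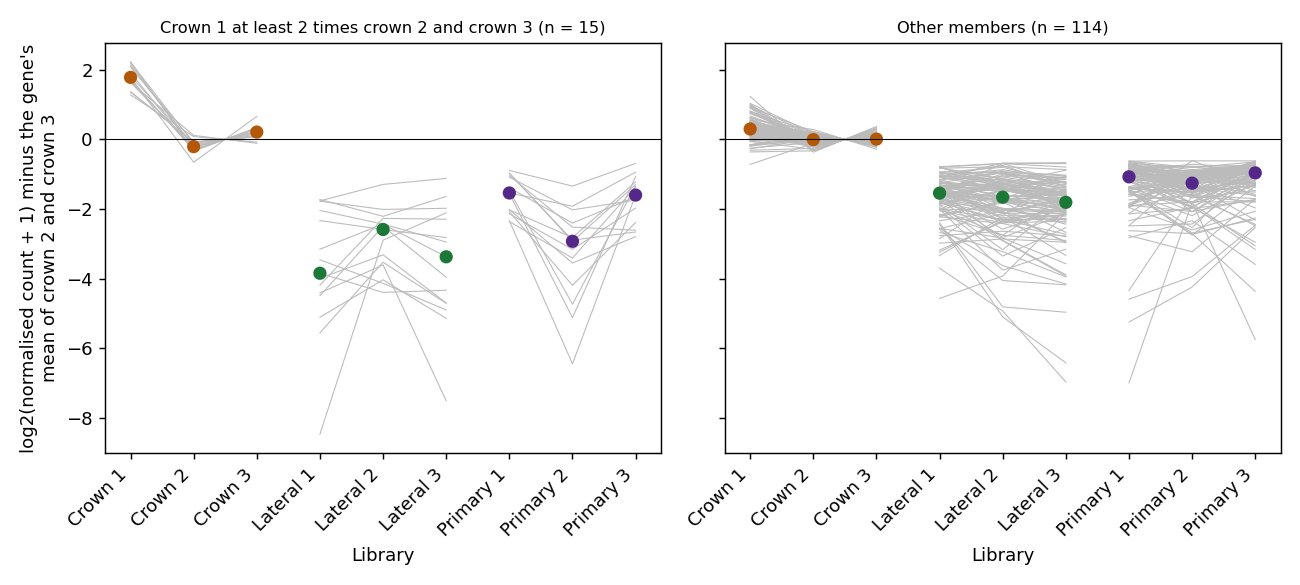
log2(normalised count + 1) minus the gene's mean of crown root replicates 2 and 3, by library, for the 15 genes with crown root replicate 1 at least 2 times both other crown root libraries (left) and the other 114 genes (right); grey lines join the replicates of a root type for each gene and coloured points are medians over genes. In the left panel primary root replicate 2 is the lowest primary root library in 14 of 15 genes.

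Over the 129 genes, the excess of crown root replicate 1 (its log2 value minus the mean of replicates 2 and 3) and the deficit of primary root replicate 2 (the mean log2 value of replicates 1 and 3 minus that of replicate 2) went together, with Pearson's r = 0.57. It was 0.21 over the 114 genes without the 15, 0.13 over the 56 genes left out by the condition on primary roots and 0.31 over the 15574 genes with a crown root mean of at least 100. These are correlations across genes that share the same libraries, given as a description. The condition on the lowest primary root value admitted the 129 genes and left out the 56, so the difference between their correlations is drawn from values that the rule used.

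Lateral root means were mostly below primary root means in the group, and the rule limits this difference only where primary roots are the higher. The rule used values of both root types, so the numbers here are a description. The mean was lower in lateral than in primary roots in 112 genes and higher in 17. The median ratio of lateral over primary means was 0.70 (0.179 to 1.997). The lower of the 2 means was at least 0.8 times the higher in 37 genes, and the lateral mean was under 0.5 times the primary mean in 20. In 56 of the 129 genes every lateral root library was below every primary root library, where 17.4% of all genes were, and in 1 gene every lateral root library was above, where 20.5% of all genes were. In the other 72 genes the libraries overlapped. The rule bars genes in which primary roots exceed lateral roots by 1.5 times in every library, so such genes are among the 56 left out, whose median lateral over primary ratio was 0.27.

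By the fit, 2 of the 129 genes (1.55%) were called lower in lateral than in primary roots, where 1.08% of all genes were. None was called higher, where 3.24% of all genes were. The 1.55% is near the share over all genes, so nothing is read from it. The median log2 fold change was -0.51, beside -0.004 over all genes. With other settings the number called ran from 0 to 12, and with a library left out it was 0 without crown root replicate 2 or 3, lateral root replicate 2 or primary root replicate 1 or 3, 1 without lateral root replicate 3 or primary root replicate 2 and 8 without lateral root replicate 1.

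Pgl_GLEAN_10022474 was the first of these 2 genes. It had 1819, 1529 and 1749 in crown roots, 239, 261 and 238 in lateral roots and 1003, 385 and 871 in primary roots. The 3 root types did not overlap, and primary roots varied most. Among primary root libraries only replicate 2 was below 1.5 times the highest lateral root value, so the gene is in the group through that library alone. Lateral over primary roots gave -1.50 on the log2 scale with a standard error of 0.298 (adjusted p = 0.00864 from limma, and from 4e-04 to 0.039 over the other settings). Pgl_GLEAN_10012739 had 2134, 1608 and 1870 in crown roots, 666, 352 and 350 in lateral roots and 1011, 1013 and 954 in primary roots. Primary roots were even here and lateral root replicate 1 was above the other lateral root libraries. The same comparison gave -1.19 with a standard error of 0.234 (adjusted p = 0.00823 from limma, and from 0.001 to 0.0422 over the other settings). Both were also called lower in lateral than in crown roots, and neither was called between crown and primary roots.

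The gene in which every lateral root library was above every primary root library was Pgl_GLEAN_10011537, named after its values were seen. It had 391, 231 and 288 in crown roots, 123, 153 and 99.8 in lateral roots and 92.8, 67.9 and 27.9 in primary roots. The order was crown, lateral, primary, with a small gap between the last of these. Lateral over primary roots gave 1.12 on the log2 scale with a standard error of 0.418 and did not pass (adjusted p = 0.1 from limma).

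**Figure D5:**
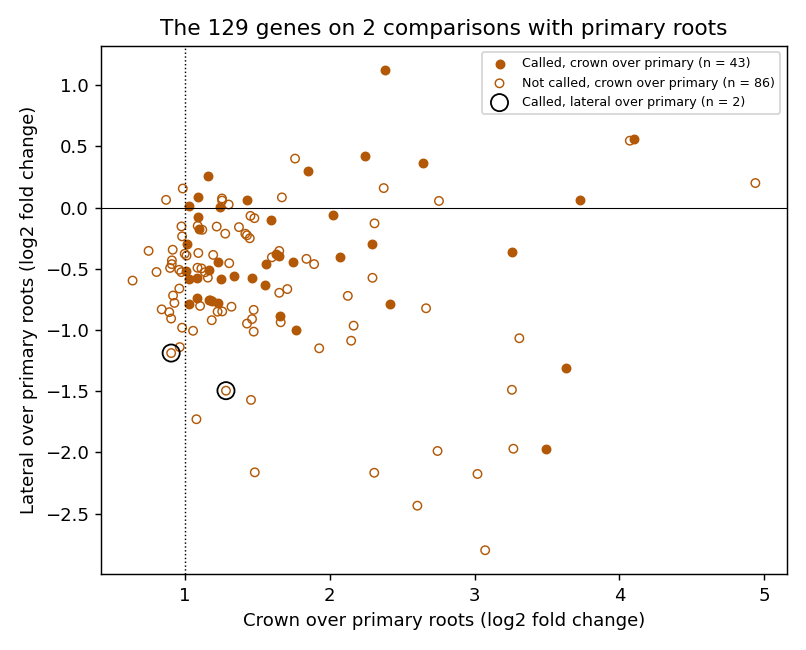
log2 fold change of lateral over primary roots (vertical) against that of crown over primary roots (horizontal) for the 129 genes; filled points were called between crown and primary roots (43 genes), ringed points between lateral and primary roots (2 genes), and the dotted line marks a log2 fold change of 1. Both axes share the primary root libraries, so their relation is not a result; most points lie below 0 on the vertical axis.

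The median coefficient of variation among the replicates of a root type was 16.3% in crown roots, 20.6% in lateral roots and 19.7% in primary roots for the 129 genes. Among the 15574 genes with a crown root mean of at least 100 it was 17.1%, 13.1% and 12.0%, and in the 56 genes left out by the condition on primary roots 21.97%, 29.3% and 18.8%. The rule used the lowest crown value, the lowest and highest primary root values and the highest lateral root value. It thus shaped these spreads, and nothing is read from their difference. Lateral root replicate 3 was the lowest lateral root library in 73 of the 129 genes (56.6%), where it was so in 36.9% of the 15574. Primary root replicate 2 was the lowest primary root library in 83 (64.3%), where it was so in 37.6%. These shares are a description too, since the rule used lateral and primary root values.

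Genes of the group recurred at neighbouring Pgl_GLEAN numbers. For 91 of the 129 genes the next number was in the table, and in 4 of these cases (4.396%) it was also a gene of the group. Over all genes this held for 84 of 13089 (0.642%). Another 3 pairs were 2 numbers apart, among 78 genes with such a number in the table (3.85%, against 0.662% over all genes). The chromosome positions of these genes were not analysed here, and reads from near-identical gene copies may be shared between such genes.

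The pairs are named after their values were seen. Pgl_GLEAN_10008725 and Pgl_GLEAN_10008727 ranked 1st and 3rd by the ratio of the lowest crown to the highest other value. Pgl_GLEAN_10008727 had 806, 621 and 825 in crown roots, 118, 42.0 and 38.5 in lateral roots and 28.7, 45.6 and 128 in primary roots. As in Pgl_GLEAN_10008725, lateral root replicate 1 and primary root replicate 3 were the highest libraries outside crown roots. The number between them, Pgl_GLEAN_10008726, was not of the group and had 54.4, 45.6 and 32.4 in crown roots, 31.4, 33.5 and 57.2 in lateral roots and 59.03, 62.8 and 47.0 in primary roots, with no excess in crown roots. Pgl_GLEAN_10006737 and Pgl_GLEAN_10006739 had crown root means of 52872 and 5007, with crown over lateral ratios of 2.60 and 9.57, so they differed in level and in ratio. Pgl_GLEAN_10020049 and Pgl_GLEAN_10020051 had crown root means of 1501 and 19611, with crown over lateral ratios of 5.89 and 7.15.

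Among the pairs with consecutive numbers, Pgl_GLEAN_10004660 and Pgl_GLEAN_10004661 had crown root means of 3517 and 956, with crown over lateral ratios of 3.93 and 4.17. Pgl_GLEAN_10024268 and Pgl_GLEAN_10024269 had 3621 and 311, with ratios of 3.82 and 4.06. Levels differed several-fold within both pairs while the crown over lateral ratios were close, and the crown over primary ratios were 2.08 and 2.40 in the first pair and 1.96 and 3.14 in the second. Pgl_GLEAN_10037821 and Pgl_GLEAN_10037822 had means of 20665 and 339, with ratios of 2.59 and 4.94. In Pgl_GLEAN_10029492 and Pgl_GLEAN_10029493 the crown root means were alike (1533 and 1516), and the crown over lateral ratios were 4.12 and 14.3. In that pair Pgl_GLEAN_10029493 varied widely outside crown roots, with 262, 40.5 and 15.6 in lateral roots and 10.1, 405 and 25.4 in primary roots, against 1694, 1319 and 1536 in crown roots.

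The 56 genes left out by the condition on primary roots met both limits on crown roots. They had a median ratio of the lowest crown to the highest other value of 1.88, against 1.69 in the 129 genes, and a median crown root mean of 2747, against 1533. Their median ratio of crown over primary means was 2.71, against 2.47. Crown root replicate 1 was at least 2 times both other crown root libraries in 11 of the 56, against 15 of the 129. Both sets were cut from the same 185 genes by their lateral and primary root values, so these differences are a description.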

How the data were processed

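RNA-seq of 9 libraries from 3 root types of Tift23DB was analysed. The authors trimmed reads with cutadapt 3.1, mapped them with HISAT2 2.0.1 to the ASM217483v2 assembly, assembled transcripts with StringTie 1.3.4 guided by annotated coding sequences, and normalised with the DESeq2 method at a minimal count sum of 90. The deposited signal per gene is a normalised count. Read counts came from the TOGGLE pipeline, and the tool that counted them within it is not named in the sources used here. Libraries were assigned by the column names in the sample descriptions, with 0 columns unused.

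In each library 100% of the values were whole multiples of a single step (tolerance 0.1 of a step), which gave the recovered counts. They rank the depth of the libraries, but 1 count is not known to equal 1 read, and no counting intervals are given. The planned count models were not run for that reason, and voom with limma was added after seeing the values.

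Values were transformed as log2(normalised count + 1), and root types were compared over all 9 libraries in limma 3.58.1 (R 4.3.3), with the trend option, without a block and with Benjamini-Hochberg adjustment over all genes. The thresholds (0.01 for the adjusted p, 1 for the size of the log2 fold change) are the study's. Fold changes on this scale understate the change of low genes. On simulated counts for the 19754 genes, the fit recovered 100% of 200 genes changed 4-fold in each comparison, with 0 false calls. The changed genes had means of at least 50, and every simulated gene had the same dispersion, 0.0284. The median ratio of crown over primary means in the group was 2.47. Recovery of changes that small, or of more variable genes, was not tested. P-values measure the spread between pools of plants.

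By the naming rule, genes are named for the 2 largest ratios of lowest crown to highest other value and, between lateral and primary roots, for the 2 largest changes in each direction among called genes. Others were named after their values were seen. The genes, limits and comparisons were chosen with earlier results of these data known. Alternatives were other pseudocounts (0.5, 10), quantile normalisation, equal totals, genes with a mean of at least 50, only 2 root types, no trend, the replicate number as a block, other thresholds and limits, and each library left out. Gene annotation and sequences were not used here.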

Additional observations from a re-analysis of the deposited data

How the results depend on the processing

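The number of genes that met the rule was 377 with a lower fold limit, 36 with a fold limit of 2 (in both conditions that use it) and 65 with equal totals. It stayed within 1.5 times of 129 with crown minimums of 50 and 200, quantile normalisation and either further condition dropped. With a library left out it ran from 125 to 230. The pooled share of picked genes that passed in held-out libraries was 61.2%, with 92.7% for any excess, 34.5% at 2-fold and 62.5% with equal totals.

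Called genes of the group between crown and primary roots numbered 26 with equal totals, 4 without the trend, 7 with only 2 root types fitted and 96 at an adjusted p of 0.05, against 43, and 7 to 34 with a library left out. Between lateral and primary roots there were 5 with quantile normalisation, 0 without the trend, 0 with only 2 root types fitted, 12 at an adjusted p of 0.05, 5 with no minimum fold change and 1 with voom, against 2, and 0 to 8 with a library left out. Between crown and lateral roots they ran from 105 to 123 with a library left out. The cause was not tested. Scaling to equal totals gave all genes a median log2 fold change of -0.20 for crown over primary roots and -0.19 for crown over lateral roots, and the group 1.14 and 1.73. The log2 fold change of Pgl_GLEAN_10008725 for lateral over primary roots, 0.56 and not called, ran from -0.060 without primary root replicate 1 to 1.301 without primary root replicate 3. The planned edgeR and DESeq2 fits were not run.

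With the replicate block 33, 115 and 2 genes were called over primary, over lateral and between lateral and primary roots. Whether libraries with the same number drew on a common pool of plants is not stated, so a pairing is possible. Of 9 same-numbered pairs 1 had a correlation of deviations over 0.1 (-0.162 to 0.158). With 3 libraries a root type, these correlations cannot decide whether the libraries are paired. Precision is limited by 3 libraries a root type.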
